A study of Mus musculus with 13 samples.

Results

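The 10 genes described here (Cd34, Plvap, Vwf, Fabp4, Gata4, Maf, Klf2, Nos3, Edn1 and Kdr) are used as markers of capillarization of the liver endothelium. They were taken by name from the 55353 gene symbols in the files, and all 10 were present. Their raw counts of unique molecular identifiers (UMIs) were read in endothelial cells of 13 droplet-based 10x Genomics 3′ scRNA-seq libraries of mouse liver. A barcode counted as a cell with at least 1500 UMIs, and as endothelial with at least 1 UMI of Pecam1 or Cdh5 and none of Ptprc or Epcam. Of 95563 cells, 30886 were endothelial. The 25856 cells with at least 3 UMIs over Stab2, Clec4g, Gpr182 and Oit3, genes of the liver sinusoidal endothelial cell (LSEC), are called sinusoidal-high, and the 3373 cells with at most 1 such UMI are called sinusoidal-low. The 1657 cells with 2 such UMIs were left out.

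All libraries came from C57BL/6J mice without a transgene, males of 6 to 12 weeks per the study's methods. Control mice (D0) received chow without the drug, and the other mice chow that held 0.1% of DDC (diethoxycarbonyl-dihydrocollidine), a xenobiotic that causes cholangitis and ductular reaction. Diet days were 0, 3, 5, 9, 19 and 25, each with 1 library of isolation protocol A and 1 of protocol B. The 2 D0 libraries are called steady state, the 4 of D3 or D5 onset, and the 6 from D9 onwards progression. The group label of D19 B names day 18. A library called STOP, made with protocol B, came from mice that returned to control chow for 7 days after 18 days of DDC. Protocol A sorted Lyve-1+ cells and Cd31+ Lyve-1- cells among other populations, whereas protocol B contained no endothelial gate and drew on living cells of a stellate cell preparation, Cd45+ Itgax+ Cd64- cells, Epcam+ cells and Cd3e+ Lyve-1- cells. The labels do not tie libraries to mice, so a library is 1 sample here, and tests measure the spread between libraries, which may be partly technical.

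LSECs line the sinusoids with open fenestrae and without an organized basement membrane. In chronic liver injury they can lose fenestrae, deposit basement membrane and take on genes of continuous capillaries, a state called capillarization. Cd34, a sialomucin of continuous endothelium, Plvap, which builds the diaphragms of fenestrae and caveolae, Vwf, the clotting and adhesion factor stored in endothelial granules, and Fabp4, a fatty acid carrier of capillaries, are read as its signs. The transcription factors Gata4 and Maf take part in keeping the sinusoidal identity. Klf2 is a transcription factor induced by laminar flow that activates Nos3, the endothelial nitric oxide synthase, and restrains Edn1, the precursor of the vasoconstrictor endothelin. Kdr is the main signalling receptor for VEGF-A, which sustains fenestrae.

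In RefSeq's annotation of GRCm38.p6, all 10 genes are protein-coding, and UMIs were assigned to genes as a whole. Their spans are chr1:194938821-194961292 for Cd34, chr8:71497753-71511806 for Plvap, chr6:125552948-125686679 for Vwf, chr3:10204342-10208616 for Fabp4 and chr14:63198914-63271712 for Gata4. The other spans are chr8:115703253-115706894 for Maf, chr8:72319062-72321654 for Klf2, chr5:24364816-24384474 for Nos3, chr13:42301476-42307990 for Edn1 and chr5:75932827-75979072 for Kdr. The 250 bases before the gene start are shown for Cd34 and Klf2, because these were the members whose 10 DDC libraries all lay on the same side of both D0 libraries in sinusoidal-high cells. Both windows lie on the + strand, at chr1:194938571-194938820 for Cd34 and at chr8:72318812-72319061 for Klf2, and capitals mark CACCC, a core letter run of KLF sites, or its reverse complement GGGTG.

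Cd34: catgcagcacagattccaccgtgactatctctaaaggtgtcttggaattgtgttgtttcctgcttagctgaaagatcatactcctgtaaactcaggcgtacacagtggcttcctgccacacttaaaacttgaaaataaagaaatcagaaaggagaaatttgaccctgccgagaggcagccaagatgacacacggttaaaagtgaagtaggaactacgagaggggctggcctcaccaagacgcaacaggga

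Klf2: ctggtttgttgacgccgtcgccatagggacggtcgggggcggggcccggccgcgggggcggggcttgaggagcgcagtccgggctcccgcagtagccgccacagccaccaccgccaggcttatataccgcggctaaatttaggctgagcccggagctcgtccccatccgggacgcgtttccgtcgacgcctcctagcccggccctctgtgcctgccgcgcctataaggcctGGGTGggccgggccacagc

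Both strands were searched for that run and also for AGATAA, a form of the GATA site, and for the MAF half-site, spelled TGCTGA. The Cd34 window held none of them, and the Klf2 window held the KLF run 1 time and neither of the others. Among 32851 RefSeq promoter windows of the same length, 52.0% held the KLF run, 9.99% the GATA form and 16.1% the MAF half-site. A match or its absence describes the letters of these windows only.

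The depth and purity of the classes differed between libraries. Libraries held 29307190 to 108602421 UMIs, with 87 (D3 B) to 5637 (D9 A) sinusoidal-high and 18 (D3 B) to 864 sinusoidal-low cells, whose median UMIs per cell were 2272 to 8842 and 2127 to 4648. Endothelial barcodes found in more than 1 library were 112 of 30774 (0.364%). The endothelial marker list (at least 3 UMIs over Pecam1, Cdh5 and 6 other genes) was detected in at least 96.6% of sinusoidal-high cells of every library. Pecam1 and Cdh5 also chose the cells, so this share is no independent check, and these 2 genes alone reached 3 UMIs in 70.7 to 95.9% of them. It was detected in 56.5% or more of sinusoidal-low cells of the 9 DDC libraries with at least 20 of them, in 9 of 18 cells of D3 B, in 84.1% of those of D0 A and in 20.5% of those of D0 B, so that the endothelial label is poorly borne out for the last. In sinusoidal-low cells of 8 of the 12 libraries fitted the summed leukocyte genes exceeded the summed endothelial genes (in D19 A by 7478 to 3229 UMIs of every 1000000, CPM), and at least 3 leukocyte UMIs were found in 18.9 to 34.2% of these cells at D0 and in 13.2 to 71.8% with DDC, so the label of this class is weak in these libraries too. At least 3 UMIs over a list of 11 LSEC genes were present in 49.3 to 84.2% of sinusoidal-low cells of these 9 libraries and in 7 of 18 cells of D3 B. At D0 the shares were 80.5% in D0 A and 30.1% in D0 B. This class is thus not free of LSEC marker RNA, and whether that RNA came from sinusoidal cells was not tested. D3 B, with fewer than 20 sinusoidal-low cells, was left out wherever that class was fitted, and the STOP library entered only the comparison between classes. Leukocyte genes (at least 3 UMIs over the list) were found in 3.85 to 5.17% of sinusoidal-high cells at D0 and in 8.41 to 72.2% with DDC, at summed levels of 183 to 252 and 228 to 939.5 CPM. In sinusoidal-low cells of the 12 libraries fitted, leukocyte genes summed to 1108 to 7478 CPM and lay above sinusoidal-high cells in 12 of 12 libraries, and mesenchymal genes summed to 0 to 13013 CPM and lay above in 11 of 12, with D0 B as the exception. By the rule Ptprc was at 0 in both classes, and the part of leukocyte and mesenchymal RNA in the differences between classes and diets was not tested.

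Levels are given as CPM, the UMIs of a gene among 1000000 UMIs of the class in a library, which is a share of the RNA and not a count of cells, so fewer positive cells and less RNA per cell cannot be told apart from a level alone. The first question was how the markers separate sinusoidal-high from sinusoidal-low endothelium. Cd34, Vwf, Edn1 and Plvap were lower, and Kdr, Maf, Gata4 and Nos3 higher, in sinusoidal-high cells of 12 libraries. That is 4 of 10 markers in each direction, while 25.5% of 9404 tested genes were called lower and 22.7% higher in this comparison, so calls were common among all genes. Fabp4 and Klf2 were not called. Calls rest on edgeR's quasi-likelihood test with the library as a block and a Benjamini-Hochberg adjusted p under 0.05 over all genes tested.

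**Figure D1:**
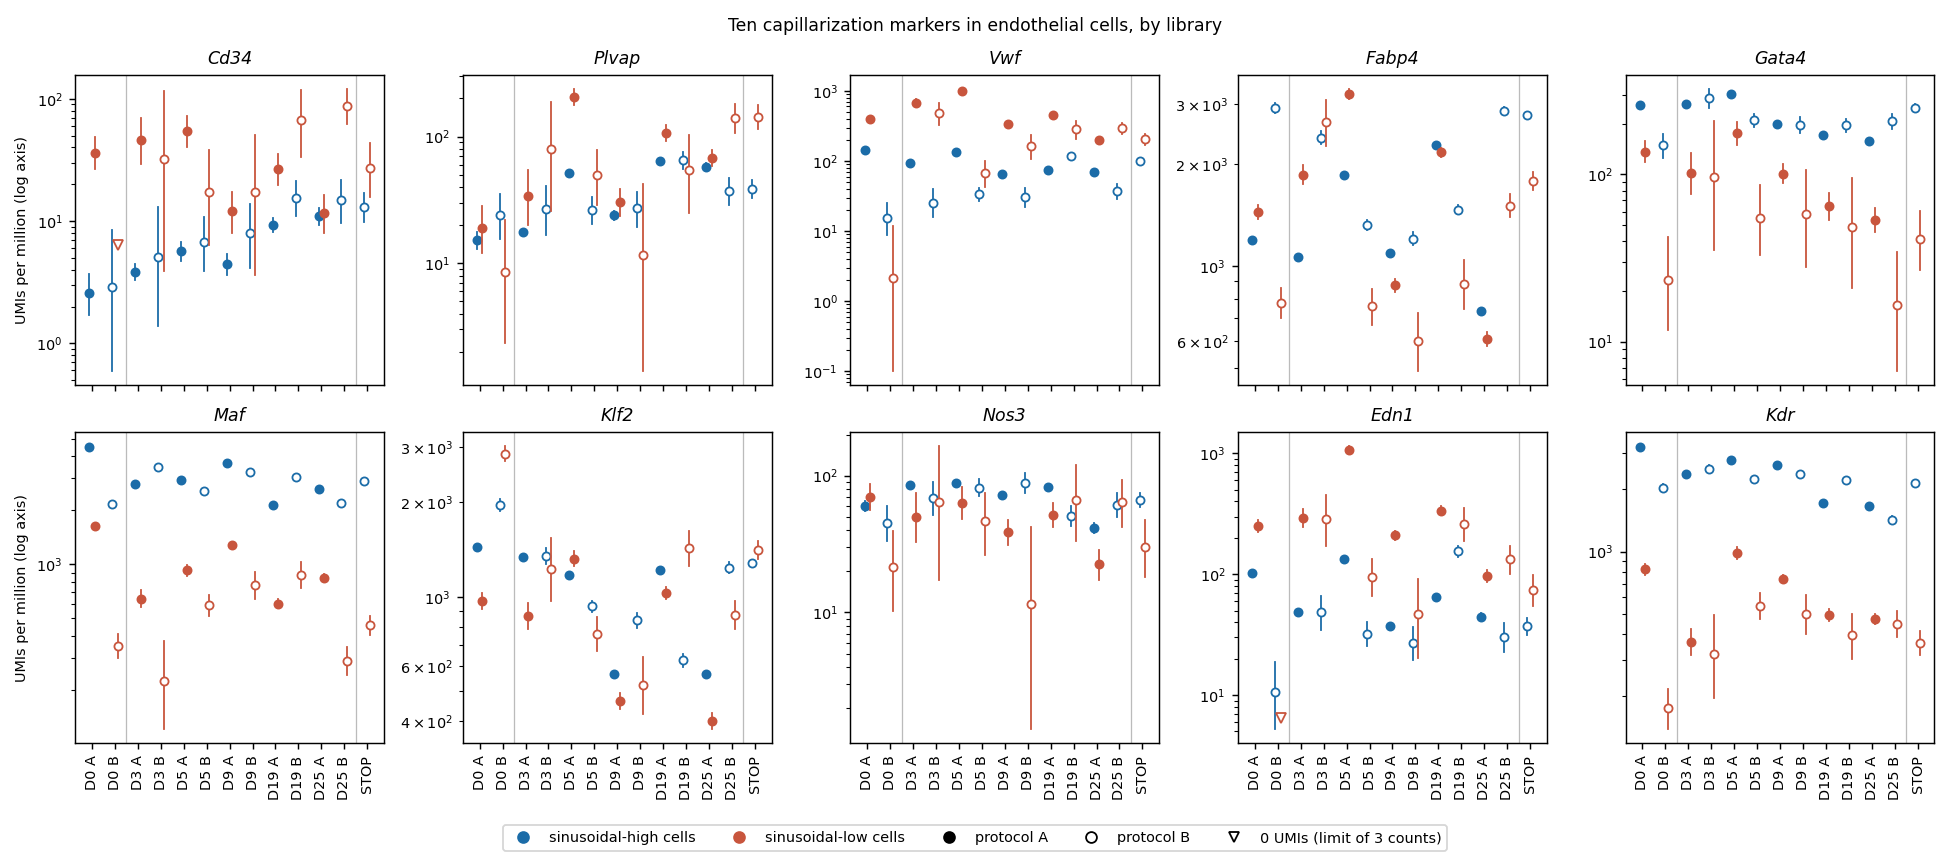
Levels of the 10 markers in each library, with CPM of the class on a log axis, blue for sinusoidal-high and red for sinusoidal-low cells, filled points for protocol A, open points for protocol B and bars for exact 95% counting intervals. Triangles stand for 0 UMIs, drawn at the limit of 3 counts. Blue points for Gata4, Maf and Kdr lie above the red point of the same library in 12 of 12 fitted libraries, and the blue Cd34 points of the 10 DDC libraries lie between 3.85 and 15.5, above both D0 points.

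Among the markers of continuous vessels, Cd34 had 2.57 to 15.5 CPM (median 6.22) in sinusoidal-high cells and 0 to 87.8 CPM (median 26.8) in sinusoidal-low cells of the atlas. It was lower in sinusoidal-high cells in 11 of 12 libraries, with a log2 fold change of -2.20 (SE 0.32, edgeR adjusted p = 1.33e-05). The exception was D0 B, where sinusoidal-low cells held 0 Cd34 UMIs, where 3 counts would be 6.41 CPM and the exact 95% upper limit is 7.88 CPM. Vwf followed the same order, with a median of 67.7 CPM in sinusoidal-high and 294 CPM in sinusoidal-low cells and a log2 fold change of -2.14 (SE 0.25, edgeR adjusted p = 1.32e-06). Edn1 had medians of 46.5 and 209 CPM and a log2 fold change of -1.93 (SE 0.25, edgeR adjusted p = 4.11e-06). Both were lower in sinusoidal-high cells in 11 of 12 libraries, again with D0 B as the exception. Plvap showed the smallest of these differences, lower in 9 of 12 libraries, with medians of 27.0 and 49.3 CPM and a log2 fold change of -1.01 (SE 0.21, edgeR adjusted p = 0.000667). Of all tested genes, 5.42% were lower in every library, and none of the 10 markers was among them.

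The sinusoidal regulators and the VEGF receptor were separated in every library. The general endothelial list was also higher in sinusoidal-high cells in 12 of 12 libraries. It summed to 5888 and 1021 CPM in sinusoidal-high and sinusoidal-low cells of D0 B, and to 5698 and 5511 CPM in D5 A. This list holds none of the 10 markers, and its part in the higher Kdr, Maf, Gata4 and Nos3 levels was not tested. Kdr had a median of 2296 CPM in sinusoidal-high and 492 CPM in sinusoidal-low cells and a log2 fold change of 1.97 (SE 0.16, edgeR adjusted p = 7.15e-09). Maf had medians of 2868 and 767 CPM and a log2 fold change of 1.83 (SE 0.16, edgeR adjusted p = 1.87e-08). Gata4, far less abundant, had medians of 203 and 58.1 CPM and a log2 fold change of 1.44 (SE 0.20, edgeR adjusted p = 7.56e-06). These 3 of 10 markers were higher in all 12 libraries, as were 16.3% of the tested genes. Without D0 B, log2 fold changes were -2.23 for Cd34, -2.24 for Vwf, -2.01 for Edn1, -1.09 for Plvap, 1.87 for Kdr, 1.79 for Maf and 1.37 for Gata4, and all 7 remained called.

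Nos3 and Fabp4 depended on how the cells were chosen. Nos3 was higher in sinusoidal-high cells in 9 of 12 libraries, with medians of 70.4 and 50.2 CPM and a log2 fold change of 0.43 (SE 0.15, edgeR adjusted p = 0.0217). That call was lost in 7 of 24 alternatives, among them leaving out D9 A (adjusted p = 0.0509) or STOP (adjusted p = 0.0501), and with at least 3 UMIs of Pecam1 and Cdh5 its log2 fold change was -0.11. Fabp4, with medians of 1392 and 882 CPM, had a log2 fold change of 0.20 (SE 0.20, edgeR adjusted p = 0.434), and under that stricter endothelial rule it was lower in sinusoidal-high cells (-0.64, adjusted p = 0.00361), whereas without the filter on low counts it was higher (0.39, adjusted p = 0.0443). Klf2 had medians of 1197 and 873 CPM with a log2 fold change of -0.05 (SE 0.15, edgeR adjusted p = 0.831). When sinusoidal-low cells were restricted to those with at least 3 UMIs of Pecam1 and Cdh5 and at most 1 UMI over the other sinusoidal markers, a choice made after seeing the data, log2 fold changes were -3.54 for Cd34, -3.83 for Vwf, -3.78 for Edn1, -2.08 for Plvap, 3.32 for Maf and 2.38 for Kdr, while Gata4 was at 1.08 (adjusted p = 0.0137) and Nos3, at 0.40, was no longer called (adjusted p = 0.736).

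**Figure D2:**
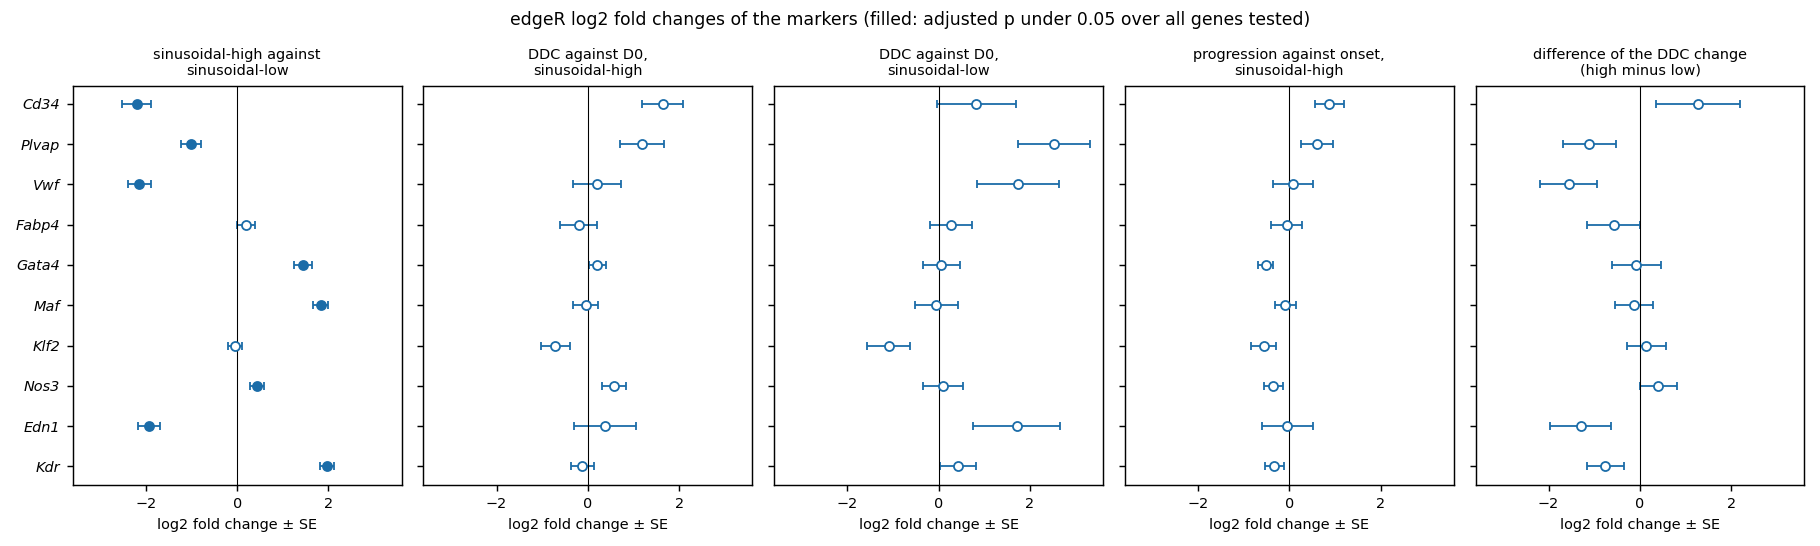
Log2 fold changes of the 10 markers with their standard errors in the 5 comparisons fitted with edgeR, where filled points passed an adjusted p of 0.05. In the left panel 8 of 10 points are filled, from -2.20 for Cd34 to 1.97 for Kdr, and in the other panels none is.

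The second question was whether DDC changed the markers within LSECs. In sinusoidal-high cells none of the 10 markers was called between the 10 DDC and the 2 D0 libraries by edgeR with isolation protocol as a term. Only 0.0903% of 13287 genes were called higher and 0.181% lower here, although 712 and 816 genes had an unadjusted p under 0.05. DESeq2 called 260 genes in all, and edgeR 577 without the filter on low counts. Cd34 was the marker with the smallest p. It had 2.57 CPM in D0 A and 2.88 CPM in D0 B. On the diet it had 3.85 and 5.11 CPM in D3 A and D3 B, 5.69 and 6.75 CPM in D5 A and D5 B, 4.42 and 7.93 CPM in D9 A and D9 B, 9.33 and 15.5 CPM in D19 A and D19 B, and 11 and 14.9 CPM in D25 A and D25 B. All 10 DDC libraries were above both D0 libraries, and the D19 and D25 libraries were the highest. The summed level of 7 large-vessel markers that are not among the 10 genes was 348 and 158 CPM in D0 A and D0 B, 234 to 335 CPM at D3, D5 and D9, and 394 and 637 CPM at D19 and 469.8 and 645 CPM at D25, so it was above both D0 libraries in the same 4 libraries, and its part in the Cd34 and Plvap values was not tested. The log2 fold change was 1.64 (SE 0.45, unadjusted p = 0.00288, edgeR adjusted p = 0.172), and the adjusted p lay between 0.0269 (no filter on low counts) and 0.369 over 24 alternatives.

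The Cd34 counts behind these levels were low. The D0 values rest on 28 and 3 UMIs, with exact 95% intervals of 1.71 to 3.71 and 0.594 to 8.42 CPM. Within protocol A the DDC mean was 2.67 times the D0 level, and within protocol B 3.49 times, with 5 of 5 DDC libraries above D0 in each. After thinning every cell to 1500 UMIs, Cd34 was detected in 0.338% and 0.240% of sinusoidal-high cells of D0 A and D0 B, and with DDC in 0.384 and 0% at D3, 0.690 and 0.189% at D5, 0.603 and 0.870% at D9, 1.13 and 0.703% at D19 and 1.52 and 1.93% at D25 (A and B). At this equal depth 8 of 10 DDC libraries were above both D0 libraries and D3 B, with 0 of 87 cells (exact 95% upper limit 4.15%), and D5 B were below both. Several shares rest on few cells, with 10 cells in D0 A, 1 in D0 B, 2 in D9 B, 3 in D19 B and 4 in D25 B. The exact 95% upper limit for D0 B was 1.33%. Leukocytes of the same libraries (Ptprc-positive barcodes without Pecam1, Cdh5 or Epcam, median 2564 to 9658 UMIs) gave 0.0629 to 0.883%. The share in sinusoidal-high cells was not above that in leukocytes in 6 of 13 libraries, both D0 libraries, D3 B, D5 A, D5 B and D9 B. In these libraries the share did not set Cd34 in sinusoidal-high cells apart from leukocytes. Whether leukocytes expressed Cd34 themselves was not tested. Epcam-positive cells of 11 libraries, another possible reference, gave lower shares of 0 to 0.676% (median 0%). In leukocytes the Cd34 level was 5.27 to 8.42 CPM at D0 and 1.39 to 10.7 CPM with DDC, above both D0 libraries in 1 of 10. In mesenchymal cells Cd34 had 51.6 CPM in D0 A, the only D0 library with enough cells, and 45.9 to 154 CPM with DDC, above D0 in 5 of 6 libraries, and their summed marker level in sinusoidal-high cells was 5.76 to 1195 CPM at D0 and 19.7 to 1255 CPM with DDC. The part of such RNA in the Cd34 values was not tested.

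Klf2 lay on the other side of D0. Its level was 1445 and 1960.0 CPM in D0 A and D0 B, and with DDC it was 1338 and 1349.5 CPM at D3, 1172 and 931 CPM at D5, 568 and 840.2 CPM at D9, 1221 and 627 CPM at D19 and 567 and 1238 CPM at D25 (A and B). All 10 DDC libraries were below both D0 libraries, with no order over the diet days within progression. The log2 fold change was -0.71 (SE 0.31, unadjusted p = 0.0395, edgeR adjusted p = 0.408), and leaving out D0 B gave -0.30 and leaving out D0 A -1.05. Cells with a Klf2 UMI after thinning made up 72.2 and 70.7% at D0 and 45.1 to 68.6% with DDC. Klf2 was also below both D0 libraries in leukocytes of 10 of 10 DDC libraries (258 to 536 CPM against 741 and 1432) and in Epcam-positive cells of 8 of 8 (34.5 to 86.0 CPM against 97.2 and 1328). In mesenchymal cells, where only D0 A had enough cells at D0, Klf2 was above its 618 CPM in 4 of 6 DDC libraries (345 to 892 CPM). A list of 12 immediate early and heat shock genes, often raised by tissue digestion, summed to 22901 and 12894 CPM in sinusoidal-high cells of D0 A and D0 B and to 5496 to 15043 CPM with DDC, below both in 8 of 10. The part of such a difference between libraries in the Klf2 values was not tested.

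Cd34 and Klf2 were thus the 2 of 10 markers whose CPM did not overlap between DDC and D0. After thinning, the shares of cells with Klf2 did not overlap either, whereas those with Cd34 did, as given above. Over all tested genes, 1.54% lay higher and 3.14% lower without overlap.

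**Figure D3:**
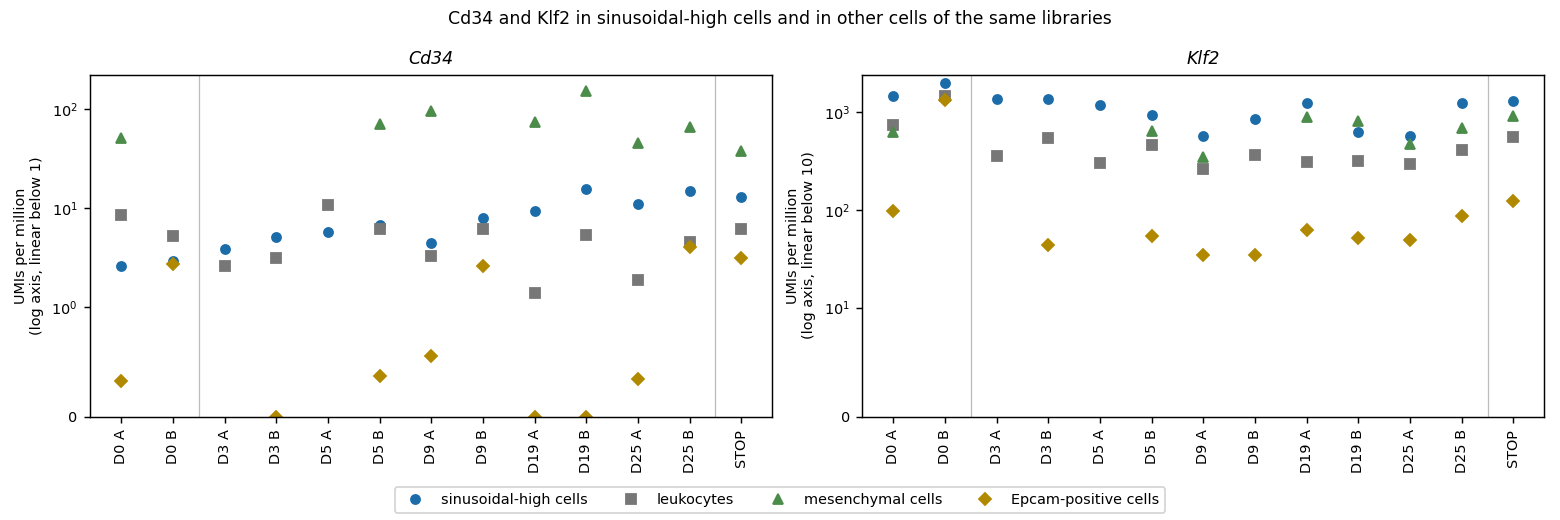
Cd34 (left) and Klf2 (right) per library in sinusoidal-high cells, leukocytes, mesenchymal cells and Epcam-positive cells, in CPM on a log axis that is linear near 0. Points are missing where a class had fewer than 20 cells. Cd34 in sinusoidal-high cells reaches 15.5 at D19 B while leukocytes stay between 1.39 and 10.7, and Klf2 of sinusoidal-high cells and of leukocytes is lower in all 10 DDC libraries than in both D0 libraries.

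Plvap had 15.2 and 24.0 CPM at D0 and 17.5 to 64.8 CPM with DDC (median 32.2), above both D0 libraries in 8 of 10. Its log2 fold change was 1.18 (SE 0.48, unadjusted p = 0.0278, edgeR adjusted p = 0.360), with 1.75 when D0 B was left out and 0.51 when D0 A was. Without the filter on low counts the adjusted p was 0.0134. D19 A, D19 B and D25 A, at 57.9 to 64.8 CPM, were the highest, and are among the 4 in which the large-vessel marker sum was above D0. Plvap was detected in 1.66 and 3.12% of thinned sinusoidal-high cells at D0 and in 8.33 and 8.90% at D19, while D3 A, D3 B, D5 B and D9 A, at 2.26 to 3.03%, lay between the D0 libraries. In all 13 libraries its share was above that in leukocytes. Mesenchymal cells of 8 libraries gave Plvap shares of 1.28 to 16.7% (median 6.22%). Their Plvap level was 11.2 CPM in D0 A and 3.53 to 106 CPM with DDC, above D0 in 4 of 6 libraries. The part of mesenchymal RNA in the Plvap values was not tested. In sinusoidal-high cells Nos3 had 60.0 and 45.1 CPM at D0 and 41.4 to 88.6 CPM with DDC, above both in 8 of 10 libraries and below both in D25 A. The log2 fold change of Nos3 was 0.57 (SE 0.27, unadjusted p = 0.0498, edgeR adjusted p = 0.434).

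For the other 6 markers the 2 D0 libraries, 1 of each protocol, differed so much that DDC libraries fell mostly between them. Vwf had 143 CPM in D0 A and 15.4 CPM in D0 B, and all 10 DDC libraries lay between these values. The log2 ratio of the DDC mean to D0 was -0.70 within protocol A and 1.68 within protocol B. Edn1 had 102 CPM in D0 A and 10.6 CPM in D0 B, and the ratios were -0.63 and 2.47. The same opposite signs were seen for Gata4 (-0.25 and 0.56), Maf (-0.66 and 0.42) and Kdr (-0.52 and 0.08), and, with the signs exchanged, for Fabp4 (0.24 and -0.66). Fitted log2 fold changes of these markers were 0.20 for Vwf, -0.20 for Fabp4, 0.21 for Gata4, -0.05 for Maf, 0.37 for Edn1 and -0.12 for Kdr, with standard errors of 0.19 to 0.68 and edgeR adjusted p of 0.739 or more. A change of these 6 markers was not detectable with 1 D0 library per protocol.

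The next question was whether the markers moved on from onset to progression, a contrast in which no D0 library is subtracted. None of 10 was called, against 0.0301% of genes called higher and the same share lower. DESeq2 called 130 genes in all, and edgeR 550 without the filter on low counts. Gata4 had 264 and 286 CPM at D3 and 301 and 211 CPM at D5, and 199, 198, 173, 197, 158 and 208 CPM in D9, D19 and D25 (A before B). Onset libraries averaged 265 ± 39.5 CPM (SD, n = 4) and progression libraries 189 ± 19.1 CPM (SD, n = 6) and did not overlap, as was the case for 1.07% of all genes that were lower and 0.888% that were higher. Its log2 fold change was -0.52 (SE 0.16, unadjusted p = 0.00521, edgeR adjusted p = 0.285). Cd34 averaged 5.35 ± 1.21 CPM at onset and 10.5 ± 4.24 CPM at progression, with overlap, and a log2 fold change of 0.88 (SE 0.31, unadjusted p = 0.0134, edgeR adjusted p = 0.380). The other 8 markers had log2 fold changes between -0.56 (Klf2) and 0.60 (Plvap) and edgeR adjusted p of 0.586 or more.

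In sinusoidal-low cells none of 10 markers was called between 9 DDC libraries and D0. Of 7870 genes, 0% were called higher (216 with an unadjusted p under 0.05) and 0.0127% lower, which was Dnajb1 alone (DESeq2 called 46 genes in all). Without overlap 0.521% were higher and 2.06% lower, none of them a marker. Plvap had 19 and 8.54 CPM at D0 and 11.6 to 207 CPM with DDC (median 54.4), above both D0 libraries in 8 of 9, with D9 B as the exception. Its log2 fold change was 2.53 (SE 0.79, unadjusted p = 0.00741, edgeR adjusted p = 0.476). Klf2 had 971 and 2864 CPM at D0 and 402 to 1426 CPM with DDC (median 868), below both D0 libraries in 6 of 9. Its log2 fold change was -1.09 (SE 0.47, unadjusted p = 0.0401, edgeR adjusted p = 0.607), and 0.08 when D0 B was left out. Immediate early and heat shock genes summed to 23098 and 9441 CPM in this class at D0 and to 4234 to 14350.0 CPM with DDC. They were below both D0 libraries in 6 of 9, and their part in the Klf2 values was not tested. Fabp4, Gata4, Maf, Nos3 and Kdr had log2 fold changes between -0.05 (Maf) and 0.42 (Kdr) and edgeR adjusted p of 0.838 or more. Without the filter on low counts Plvap, Vwf and Edn1 were called (log2 fold changes 2.64, 1.81 and 1.80, edgeR adjusted p = 0.000138, 0.0262 and 0.0221). D0 B held 0 UMIs of Cd34 and Edn1 and 1 of Vwf in this class, and the log2 fold changes of 0.83, 1.71 and 1.74 for Cd34, Edn1 and Vwf became -0.11, 0.74 and 0.68 without it. Levels of the large-vessel marker list without the members were 42.7 and 306 CPM at D0 and 107 to 604 CPM with DDC, above both in 4 of 9, and the part of the makeup of this class in these values was not tested. Without D0 A, where D0 B is the only control, Vwf and Edn1 were called (edgeR adjusted p = 0.0243 and 0.0346), with fitted folds that rest on these 1 and 0 UMIs, and 571 genes were called in all. The difference of the DDC change between both classes was called for none of 12373 genes by edgeR (241 with an unadjusted p under 0.05 in one direction and 243 in the other, and 3 called by DESeq2), and for the markers it ranged from -1.56 for Vwf (SE 0.62, unadjusted p = 0.0213, not called) to 1.27 for Cd34 (SE 0.93). Without D0 A the fitted differences of Vwf and Edn1 were -4.89 and -11.14, and without D0 B -0.86 and -0.76, where those with both were -1.56 and -1.30.

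Gene lists of the same pathways gave the setting. Of 17 tested genes of sinusoidal identity, 16 were higher in sinusoidal-high cells, among them Mrc1, the mannose receptor (log2 fold change 2.34), Bmp2 (2.70) and Fcgr2b (2.79), while Rspo3, a Wnt agonist of central vein endothelium, was lower (-0.99). The list's median was 1.36, and that of all tested genes 0.00, of which 22.7% were called higher and 25.5% lower. The classes were themselves split on other LSEC genes, so the result for this list is no independent check. Of 16 genes of continuous and capillary endothelium, 7 were higher and 4 lower (median 0.45), the latter near the share over all genes, with the water channel Aqp1 (1.70) on one side and Rgcc (-3.31) and Ly6c1 (-2.93) on the other. Among 9 genes of the VEGF axis, 6 were higher, led by the receptors Flt4 (1.54) and Nrp1 (1.59) and by Plxnd1 (1.41), and the ligand Vegfc was lower (-1.67), with a median of 0.99. Of 9 genes of the nitric oxide and endothelin axis, 3 were higher, including Nostrin, which binds the Nos3 protein (1.70), and Gucy1a1 (-2.94) and Gucy1b1 (-1.98), the subunits of soluble guanylate cyclase, were lower, with a median of -0.09. Marker genes of mesenchymal cells, which are known to express guanylate cyclase too, were higher in sinusoidal-low cells in 11 of 12 libraries. The part of mesenchymal RNA in these and in the lower genes of the other lists was not tested. Of 17 endothelial transcription factors, 11 were higher and 3 lower (median 0.49), with Ets1 (1.25) and Tfec (1.55) higher and Gata6 lower (-2.90). Of 10 basement membrane genes, 4 were higher and 1 lower (median 0.33), with the heparan sulfate proteoglycan Hspg2 higher (1.16) and the laminin chain Lamb1 lower (-3.15). Of the 6 pericentral genes 3 were higher and 2 lower, and of the 6 periportal genes 3 and 1. Of 12 immediate early and heat shock genes 2 were lower, a smaller share than over all genes.

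Between DDC and D0 in sinusoidal-high cells, 1 gene of these lists was called, the basement membrane collagen Col4a2, which rose (log2 fold change 1.37, SE 0.23, edgeR adjusted p = 0.0227). It was 1 of 13 tested basement membrane genes, whose median was 0.38, while 0.0903% of all 13287 tested genes were called higher. Its partner chain Col4a1 had a log2 fold change of 1.60 (SE 0.40, edgeR adjusted p = 0.117). The Col4a2 call was not followed over the alternatives, in which 11 to 577 genes were called. Mesenchymal marker genes summed to 5.76 to 1195 CPM in sinusoidal-high cells at D0 and to 19.7 to 1255 CPM with DDC. The part of mesenchymal RNA in the Col4a2 and Col4a1 values was not tested. Medians of the other lists were -0.05 for sinusoidal identity, 0.05 for continuous and capillary endothelium, 0.11 for the VEGF axis, 0.00 for nitric oxide and endothelin, -0.21 for transcription factors, 0.17 for pericentral, 0.13 for periportal and -0.78 for immediate early and heat shock genes, none of them with a called gene. In sinusoidal-low cells Dnajb1, a heat shock co-chaperone, fell by 2.68 on the log2 scale (SE 0.30, edgeR adjusted p = 0.00828), and no other gene of the 9 lists was called. No gene of the lists was called from onset to progression or for the difference between classes.

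Along the sinusoid the markers were not spread evenly. Sinusoidal-high cells with at least 3 UMIs over Wnt2, Wnt9b, Rspo3, Kit, Thbd and Cdh13 and none over Efnb2, Adgrg6, Ltbp4, Dll4, Ntn4 and Msr1 are called pericentral (2637 cells), and those with the reverse periportal (1612 cells). Differences are described without a test. Efnb2 is also on the large-vessel marker list, as is Cd34, and the part of large-vessel endothelium in the cells called periportal was not tested. Cd34 was higher in periportal cells in 7 of 7 libraries with more than 10 Cd34 UMIs over both zones, and over all libraries with a UMI the medians were 12.3 and 2.51 CPM on 108 and 42 UMIs. D0 A, D0 B, D5 B and D25 B had 1 to 10 such UMIs, too few to give an order. Nos3 was higher in pericentral cells in 13 of 13 libraries, with medians of 80.9 and 38.6 CPM, and Fabp4 in 11 of 13, with 1510.3 and 1178 CPM. For Nos3, pericentral and periportal cells held 9 and 1 UMIs in D0 B, 3 and 3 in D3 B, 5 and 0 in D9 B and 7 and 3 in D25 B. These counts are likewise too few to give an order. In the D0 libraries Fabp4 had 1510.3 CPM in pericentral and 539.7 CPM in periportal cells of D0 A, and 5352 and 549.8 CPM in D0 B. With DDC, pericentral cells had 1370.3 and 3285 CPM and periportal cells 465 and 1249 CPM in D3 A and D3 B, with 2143 and 1178 CPM in D5 A, 1433 and 751 CPM in D9 A and 1267 and 724 CPM in D9 B, and STOP had 3376 and 2322 CPM. Both zones were closer in D5 B, with 1308 and 1206 CPM, and at D19 and D25, with 2198 and 2143 CPM in D19 A, 1351 and 1383 CPM in D19 B, 696 and 705 CPM in D25 A and 2814 and 2719.9 CPM in D25 B. Plvap was higher in pericentral cells in 9 of 13 libraries, and Vwf, Edn1, Gata4, Maf, Klf2 and Kdr were higher in either zone in 5 to 8 libraries. For Plvap, D0 A, D0 B, D3 B, D5 B, D9 B and D25 B had at most 6 UMIs in a zone, too few to give an order. Vwf and Edn1 were as scarce in some protocol B libraries, with 1 and 0 UMIs of Vwf and 0 and 1 of Edn1 in D9 B.

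**Figure D4:**
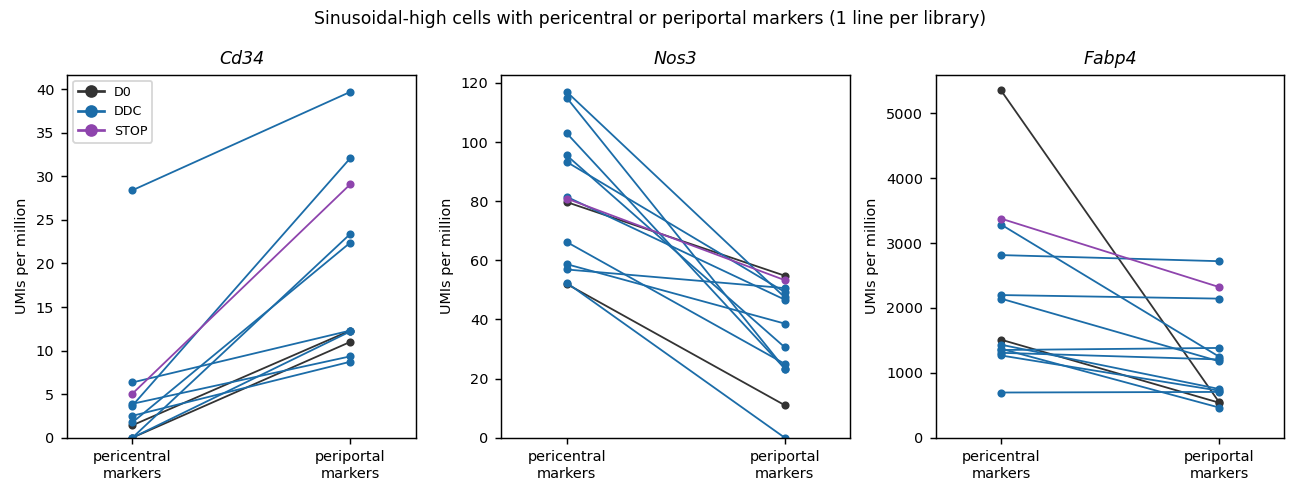
Cd34, Nos3 and Fabp4 in sinusoidal-high cells with pericentral or periportal markers, in CPM, with 1 line per library for D0 (dark grey), DDC (blue) and STOP (purple). Lines for Nos3 fall toward the periportal side in all 13 libraries and those for Cd34 rise in the 7 with more than 10 UMIs, with medians of 2.51 and 12.3 for Cd34 and of 80.9 and 38.6 for Nos3. D0 B, D3 B, D9 B and D25 B had at most 9 Nos3 UMIs in a zone, too few to give an order.

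Plvap, Vwf, Fabp4, Edn1, Gata4 and Maf were then counted in sinusoidal-high cells with a Cd34 UMI, as a description. After thinning to 1500 UMIs, 120 sinusoidal-high cells of progression libraries had a Cd34 UMI. Of these, 7.50% also had Plvap, 8.33% Vwf, 65.8% Fabp4 and 91.7% Maf, against 5.29, 4.38, 65.1 and 95.5% of the 12127 cells without Cd34. Edn1 was found in 4.17% of cells with Cd34 and 3.13% of the others, and Gata4 in 16.7 and 22.7%. In the D0 libraries only 11 such cells had a Cd34 UMI. Of these 11 cells, 2 had Vwf (18.2%), 1 Plvap (9.09%) and 1 Edn1 (9.09%), against 4.22, 1.81 and 3.95% of the others. Fabp4 was found in 7 of 11 (63.6%), Gata4 in 3 (27.3%) and Maf in 10 (90.9%), against 59.7, 29.0 and 97.7% of the others. At onset, Vwf was found in 11 of 47 cells with Cd34 (23.4%) and in 5.40% of the others, while Plvap was found in 1 of 47 (2.13%) and in 3.88% of the others, and Fabp4 in 35 of 47 (74.5%) and in 66.9% of the others. Edn1 was found in 6 of 47 (12.8%) and in 3.73% of the others, and Gata4 in 12 of 47 (25.5%) and in 32.5%. In STOP, Plvap and Vwf were each found in 3 of 14 cells with Cd34 (21.4%), against 4.02 and 5.36% of the others.

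Profiles most like those of the markers were sought over the 23 sums per class and library of the atlas, as the smallest root mean squared difference of centred log2 CPM. Vwf was the nearest gene to Edn1 (0.84), whereas Lmo7 (0.74) and Rbms3 (0.81) were nearest to Vwf. Plpp3 (0.25) and Tfpi (0.29) were nearest to Kdr, Ptprb (0.35) and Tspan7 (0.37) to Gata4, Stard8 (0.31) and Zbtb39 (0.33) to Maf, and Spint2 (0.37) and Ier2 (0.41) to Klf2. For Cd34 the nearest were Palmd (0.70) and Smo (0.87), for Plvap Asap2 (0.64) and Ehd4 (0.70), for Fabp4 Id3 and Gng11 (0.40 each) and for Nos3 Zkscan3 (0.32) and Ahctf1 (0.34). All these sums share libraries and both classes.

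After return to control chow, the STOP library was set beside D19 B, the library of the same protocol nearest in diet day. Each condition has 1 library, so there is no replicate check, and intervals cover counting error only. In sinusoidal-high cells Edn1 had the ratio farthest from 1, with 37.3 CPM in STOP and 155 CPM in D19 B (ratio 0.241, exact 95% interval 0.20 to 0.291), where D0 B had 10.6 CPM. D19 B was itself the highest of all libraries for Edn1. Klf2 had 1279 and 627 CPM (ratio 2.04, interval 1.93 to 2.15) against 1960.0 CPM in D0 B, and Fabp4 2782 and 1465 CPM (1.90, interval 1.83 to 1.97) against 2928 CPM. Klf2 in STOP was also above the highest DDC library in leukocytes (550.1 against 536 CPM). The same held for Epcam-positive cells (122 against 86.0 CPM) and mesenchymal cells (915 against 892 CPM). The part of such a difference between libraries in the Klf2 ratio was not tested. In sinusoidal-high cells Plvap had 38.7 and 64.8 CPM (0.598, interval 0.480 to 0.745). Cd34 had 13 and 15.5 CPM, a ratio of 0.836 whose interval of 0.548 to 1.28 includes 1, against 2.88 CPM in D0 B. After thinning, the ratio of Cd34 was 2.62. Cd34 was then found in 14 of 760 cells in STOP (1.84%, exact 95% interval 1.01 to 3.07%). In D19 B it was found in 3 of 427 cells (0.703%, interval 0.145 to 2.04%). The intervals overlap, so these counts give no order. Ratios of Gata4 (1.27) and Nos3 (1.29) were above 1, those of Vwf (0.838) and Maf (0.957) just below, and that of Kdr (0.973) not apart from 1. In sinusoidal-low cells Edn1 (0.287) was likewise lower and Fabp4 (2.02) higher, the latter at 4.55 with at most 1 mesenchymal and 1 lymphatic UMI per cell. Cd34 (0.406, interval 0.179 to 0.959) and Maf (0.524, interval 0.427 to 0.644) were also lower in STOP in this class, whereas Plvap went the other way, with 143 CPM on 90 UMIs in STOP and 54.4 CPM on 9 UMIs in D19 B (2.63, interval 1.32 to 5.93), and 1.25 after thinning. Lymphatic marker genes summed to 1939.9 CPM and mesenchymal ones to 13013 CPM in sinusoidal-low cells of STOP, and their part in these ratios was not tested.

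**Figure D5:**
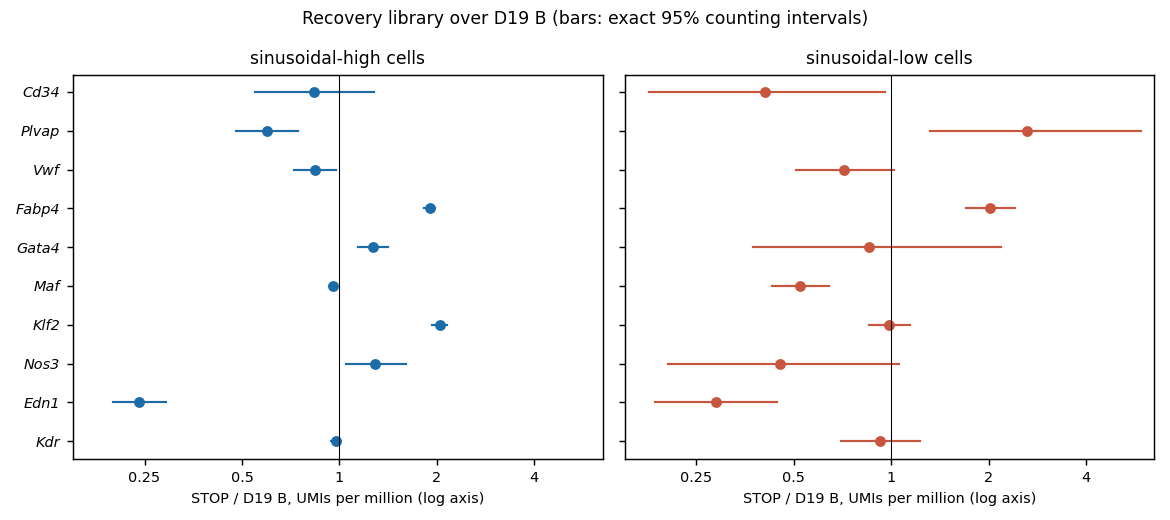
Ratio of CPM in the STOP library to D19 B for each marker on a log axis, with exact 95% counting intervals, for sinusoidal-high (left) and sinusoidal-low cells (right). Edn1 lies lowest in both panels at 0.241 and 0.287, Fabp4 near 2 in both, and Plvap at 0.598 on the left and 2.63 on the right.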

How the data were processed

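The authors deposited raw UMI counts per barcode and gene for each of 13 10x 3′ libraries, with unfiltered barcodes; per the labels, the processing notes name kallisto and the genome build GRCm38. Here barcodes with at least 1500 UMIs were kept and classed by the marker rules given in the results. Doublets were not removed, and 1104 of 94448 barcodes occurred in more than 1 library. Counts were summed per library and class with at least 20 cells and tested with edgeR 4.0.16 (R 4.3.3): filterByExpr, TMM, quasi-likelihood F test, Benjamini-Hochberg adjustment over all genes tested, threshold 0.05. The class comparison and the difference between classes had the library as a block, the stage comparisons had isolation protocol as a term, and the standard error was the log2 fold change divided by the square root of F. The fit was also run on simulated counts drawn without library or protocol effects, so that run does not cover such effects. Alternatives were DESeq2 1.42.0, other normalization, filters, class rules, thinning, protocol A only, no protocol term and leaving out each library. Exact 95% intervals and the limit of 3 counts cover counting error only.

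All 10 markers are reported in every comparison, with at most 3 called genes per direction for each pathway list by smallest p and the 2 genes of nearest profile. The markers and lists were chosen with earlier results of these data known. Promoter windows came from RefSeq, where 4 of 10 markers matched and 3 had a window that ended at the gene start. Python 3.11.15, numpy 2.4.6, scipy 1.17.1 and matplotlib 3.10.9 were used.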

Additional observations from a re-analysis of the deposited data

Results flagged for a closer look

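Within groups of 4 to 10 libraries, 30 groups of marker levels were examined for a library far from the others by Dixon's criterion, and 3 stood apart. Chance gives such a gap in about 1 in 20 groups. Edn1, the endothelin precursor, had 134 CPM in sinusoidal-high cells of D5 A, where the next onset library had 48.5 CPM (gap over range 0.840, n = 4). In the same class Edn1 had 155 CPM in D19 B, with the next progression library at 65.0 CPM (0.702, n = 6), and D19 B is the library beside which the recovery library was set. Kdr, the VEGF receptor, had 735 CPM in sinusoidal-low cells of D9 A, with the next progression library at 499.8 CPM (0.687, n = 6).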

How the results depend on the processing

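Cd34, Plvap, Vwf, Edn1, Gata4, Maf and Kdr kept direction and call between classes in every alternative run (23 for Cd34, 24 for the others). Over all markers, 219 of 239 values kept direction and call in this comparison, 222 of 240 for DDC in sinusoidal-high cells, 197 of 229 in sinusoidal-low cells, 214 of 240 from onset to progression and 198 of 220 for the difference between classes; 79 of 100 recovery ratios stayed within their interval. The comparison of classes and the difference between them were paired by library. For the comparisons of diet days, isolation protocol was a term, and the labels give no replicate numbers. The stricter sinusoidal-low class was not run for the DDC comparison in that class or for the difference between classes. Low counts of Cd34 and Plvap, 2 control libraries and 1 recovery library limit the precision. The cause of the changes below was not tested.

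Genes called between classes (4531) numbered 7161 without the filter on low counts, 2712 with at least 3 UMIs of Pecam1 and Cdh5, 2475 after thinning, 2552 with at most 1 leukocyte UMI and 966 with the stricter sinusoidal-low class. For DDC in sinusoidal-high cells (36) they numbered 260 with DESeq2, 577 without the filter, 63 with at least 3000 UMIs and 331 with protocol A only, and 11 (without D3 A) to 159 (without D0 A) with a library left out. For DDC in sinusoidal-low cells (1) they numbered 46 with DESeq2, 4 without TMM, 297 without the filter, 5 with 3000 UMIs, 29 with 3 UMIs of Pecam1 and Cdh5, 3 with at least 6 against 0 sinusoidal UMIs, 3 with at most 1 mesenchymal and 1 lymphatic UMI, 7 after thinning, 4 with at most 1 leukocyte UMI, 197 with protocol A only and 0 with at least 50 cells, and 1 to 571 (without D0 A) with a library left out. From onset to progression (8) they numbered 130 with DESeq2, 550 without the filter, 5 with few mesenchymal and lymphatic UMIs, 16 after thinning, 3 with at most 1 leukocyte UMI, 275 with protocol A only and 5 without the protocol term, and 0 (without D3 A) to 25 (without D5 B) with a library left out. For the difference between classes (0) they numbered 3 with DESeq2, 45 without the filter, 1 with 3 UMIs of Pecam1 and Cdh5, 7 after thinning and 3 with protocol A only, and 0 to 252 (without D0 A) with a library left out.

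The following log2 fold changes had the opposite sign. Between classes, Klf2 was 0.13 without TMM, 0.14 without the filter, 0.06 with 6 against 0 sinusoidal UMIs, 0.20 with protocol A only and 0.03 with 50 cells, Fabp4 was -0.64 with 3 UMIs of Pecam1 and Cdh5, -0.02 with few mesenchymal and lymphatic UMIs, -0.12 with few leukocyte UMIs, -0.65 with the stricter sinusoidal-low class and -0.34 with protocol A only, and Nos3 was -0.11 with 3 UMIs of Pecam1 and Cdh5. For DDC in sinusoidal-high cells, Maf was 0.03 without the filter, Maf 0.14, Vwf -0.52, Edn1 -0.16 and Kdr 0.03 with 3000 UMIs, Fabp4 0.01 with 6 against 0, Vwf -0.03 with few mesenchymal and lymphatic UMIs and -0.07 without the protocol term, and Vwf -0.45, Fabp4 0.52 and Edn1 -0.43 with protocol A only. For DDC in sinusoidal-low cells, Gata4 was -0.09 and Nos3 -0.05 without TMM, Maf 0.04 without the filter and 0.91 with 3000 UMIs, Gata4 -0.20, Klf2 0.19, Nos3 -0.52 and Kdr -0.24 with 3 UMIs of Pecam1 and Cdh5, Maf 0.35 and Nos3 -0.06 with 6 against 0, and Gata4 -0.25 with few mesenchymal and lymphatic UMIs, -0.04 after thinning and -0.01 with 50 cells. With protocol A only, Cd34 was -0.06, Gata4 -0.10, Klf2 0.12, Nos3 -0.24 and Kdr -0.03. From onset to progression, Edn1 was 0.04 with DESeq2 and 0.09 with few leukocyte UMIs, Vwf -0.02 with 3000 UMIs, -0.06 with 6 against 0, -0.15 with few leukocyte UMIs, -0.67 with protocol A only and -0.21 without the protocol term, and Fabp4 and Maf 0.02 after thinning. For the difference between classes, Gata4 was 0.00 without TMM, Klf2 -0.25 with 3000 UMIs, Fabp4 0.29, Gata4 0.40, Maf 0.52 and Klf2 -0.52 with 3 UMIs of Pecam1 and Cdh5, Cd34 -1.59, Gata4 0.11 and Maf 0.03 with few mesenchymal and lymphatic UMIs, Maf 0.02 and Klf2 -0.15 with few leukocyte UMIs, and Gata4 0.14, Maf 0.15 and Klf2 -0.42 with protocol A only. The leukocyte and stricter sinusoidal-low settings were chosen after seeing the data.

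With a library left out, Klf2 ranged from -0.10 to 0.06 between classes. For DDC in sinusoidal-high cells, Vwf ranged from -0.41 to 1.65, Fabp4 from -0.73 to 0.52, Maf from -0.36 to 0.36, Edn1 from -0.38 to 2.44 and Kdr from -0.23 to 0.02. In sinusoidal-low cells, Cd34 ranged from -0.11 to 8.52, Gata4 from -0.18 to 0.64, Maf from -0.48 to 0.64, Klf2 from -1.84 to 0.08, Nos3 from -0.28 to 0.98 and Kdr from -0.06 to 1.24. From onset to progression, Vwf ranged from -0.39 to 0.29, Fabp4 from -0.31 to 0.09, Maf from -0.16 to 0.04 and Edn1 from -0.72 to 0.39. For the difference between classes, Cd34 ranged from -9.23 to 1.78, Fabp4 from -1.43 to 0.48, Gata4 from -0.94 to 0.52, Maf from -0.46 to 0.42, Klf2 from -0.44 to 0.96 and Nos3 from -0.21 to 0.81, and, with no change of sign, Vwf from -4.89 to -0.86, Edn1 from -11.14 to -0.76, Plvap from -2.13 to -0.61 and Kdr from -1.33 to -0.03, each between leaving out D0 A and D0 B.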
